A study of Mus musculus with 39 samples.

Results

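The upper small intestine of 2 inbred mouse strains, BALB/cJ and C57BL/6J, was compared gene by gene. The comparison takes 13 of the 39 libraries of a series that sampled 3 gut segments (duodenum/jejunum, ileum and colon) from each of 13 mice, 6 BALB/cJ and 7 C57BL/6J. The members are all table entries that reached at least 1 TPM (a transcript's length-scaled share of its library) in at least 6 of the 13 duodenum/jejunum libraries, which is 15325 of 34600 entries. The labels give each animal's strain, segment and number. They name no treatment, sex, age, batch or time of collection, and no allele that both strains carry.

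The duodenum and jejunum digest and absorb most of a meal: enterocytes carry sugar, peptide and lipid transporters on their brush border, and goblet cells make mucus. At the base of the crypts Paneth cells release antimicrobial peptides, and plasma cells of the lamina propria secrete IgA that is carried into the lumen. Tuft cells sense luminal chemicals, enteroendocrine cells release hormones, and lymphocytes sit between the epithelial cells. The series title places the strains in a study of how differing immune genes act on commensal bacteria, and the question taken up here is which genes differ between the strains in this segment.

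The strain labels were checked first. H2-Ea-ps, the class II E alpha gene that C57BL/6J mice do not express, ran from 95 to 197 TPM in the 6 BALB/cJ mice and from 0 to 0.381 TPM in the 7 C57BL/6J mice. Pla2g2a, the secretory phospholipase A2 that C57BL/6J mice carry in a disrupted form, had a lowest, median and highest level of 1006, 1303 and 1972 TPM in BALB/cJ and of 23.9, 29.2 and 46.5 TPM in C57BL/6J. Both genes separated every library as labelled. Nnt, the transhydrogenase with a deletion in C57BL/6J, averaged 14.9 TPM in BALB/cJ and 12.1 TPM in C57BL/6J (limma, Benjamini-Hochberg adjusted p = 0.35), and Ighg2c, the IgG isotype of the C57BL/6J haplotype, averaged 1.08 and 1.27 TPM (adjusted p = 0.75), so neither of these separated the strains.

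The segment label was checked against regional markers. Tmprss15, the enteropeptidase of the duodenum, lay between 12.2 and 68.8 TPM in all 13 libraries, and Fabp1, the fatty acid binding protein of the proximal gut, between 3207 and 9417 TPM. Car1, a colon carbonic anhydrase, stayed between 1.66 and 15.1 TPM here against 1819 to 5725 TPM in the colon libraries, and Hoxb13, a distal gut factor, did not exceed 0.715 TPM. The library labelled C57BL/6J mouse 2 stood apart. Fabp6, the ileal bile acid binding protein, was at 6111 TPM in it, against 3.12 to 32 TPM in the other C57BL/6J libraries and 2.99 to 96.0 TPM in BALB/cJ. Slc10a2, the ileal bile acid transporter, was at 86.7 TPM there and at 2.22 to 9.30 TPM in the other 12. The same library held 39.2 TPM of Tmprss15, within the range of the others. The ileum library of that animal held 22.1 TPM of Fabp6 and 51.2 TPM of Tmprss15, where the other C57BL/6J ileum libraries held 3766 to 8189 TPM and at most 0.0304 TPM. Results are therefore also given with this duodenum/jejunum library left out.

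Other features of the libraries crossed the strains. Gkn1, a gastrokine of the stomach lining, was under 1 TPM in 4 libraries (BALB/cJ mice 2 and 5, C57BL/6J mice 1 and 3) and between 23.3 and 132.8 TPM in the other 9. The summed level of 14 stomach and Brunner gland markers ran from 5.58 to 4465 TPM in BALB/cJ and from 12.7 to 3256 TPM in C57BL/6J. That of 24 pancreatic markers ran from 4407 to 14493 TPM and from 4577 to 14948 TPM. The most abundant of the 24 is also on the goblet cell list, so this sum does not measure pancreatic RNA alone. A trypsin gene among the 24 ran from 0.083 to 380.5 TPM in BALB/cJ and from 0.105 to 554.9 TPM in C57BL/6J. None of the 9 tested members of the stomach and Brunner gland list or of the 21 of the pancreatic list was called, nor of the 10 of the adipocyte list. Ddx3y, a gene of the Y chromosome, was above 10 TPM in BALB/cJ mouse 1 and C57BL/6J mice 6 and 7 and under 1 TPM in the other 10, in all 3 segments. Because these are bulk tissue samples, fewer cells of a type and less RNA per cell cannot be told apart in any result below, and p-values measure the spread between these mice only.

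**Figure D1:**
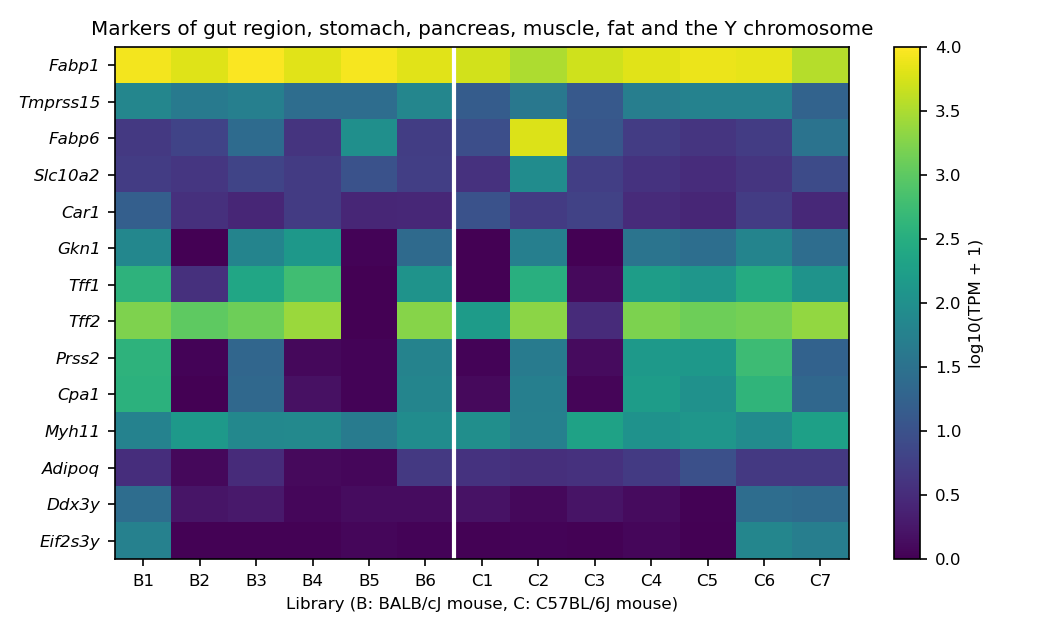
Levels of 14 marker genes in the 13 duodenum/jejunum libraries as log10(TPM + 1), with BALB/cJ mice 1 to 6 (B) on the left of the white line and C57BL/6J mice 1 to 7 (C) on the right. Fabp1 is high throughout, Fabp6 and Slc10a2 are high in the library labelled C57BL/6J mouse 2, Gkn1 is near 0 in B2, B5, C1 and C3, and Ddx3y is high in B1, C6 and C7.

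Of the 15325 genes tested, 1454 were called (limma, adjusted p under 0.05), which is 9.49% of them. Of these, 720 were higher in BALB/cJ (4.70%) and 734 were lower (4.79%). The median difference of all genes, on the scale of log2(TPM + 1) and as BALB/cJ minus C57BL/6J, was 0.01, and the median size was 0.72 for called genes and 0.15 for all. Mean TPM differed at least 2-fold for 304 of the genes called higher and 306 of those called lower. The strains did not overlap for 821 genes (5.36%), and 808 of these were called. Without the library labelled C57BL/6J mouse 2 there were 1374 calls (8.97%), 652 higher and 722 lower, of which 1265 were among the 1454. When each of the 13 libraries was left out in turn, 1051 calls held in all 13 fits, 533 higher and 518 lower. Without the 3 libraries with Y-linked transcripts there were 927 calls, 487 higher and 440 lower, and without the 4 libraries under 1 TPM of Gkn1 671 higher and 454 lower. Of the 120 called genes named here, all but H2-DMb2 and Hlf kept their call in all 13 single-library omissions. The named genes were mainly chosen because their calls held in this way, so this count does not describe the 1454. Without the libraries with Y-linked transcripts 14 of the 120 were no longer called (Acaa2, Adh1, Aqp11, Btnl1, Btnl4, Cd74, Dclk1, Dgat2, Dpep1, H2-DMb2, Hlf, Ighg2b, Mme and Slc6a8, with adjusted p of 0.05 to 0.13). Without the libraries under 1 TPM of Gkn1 8 were no longer called (Btnl1, Car12, Cd2, Ciart, H2-DMb2, H2-Ob, Insig1 and Mcm6, with adjusted p of 0.072 to 0.21).

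**Figure D2:**
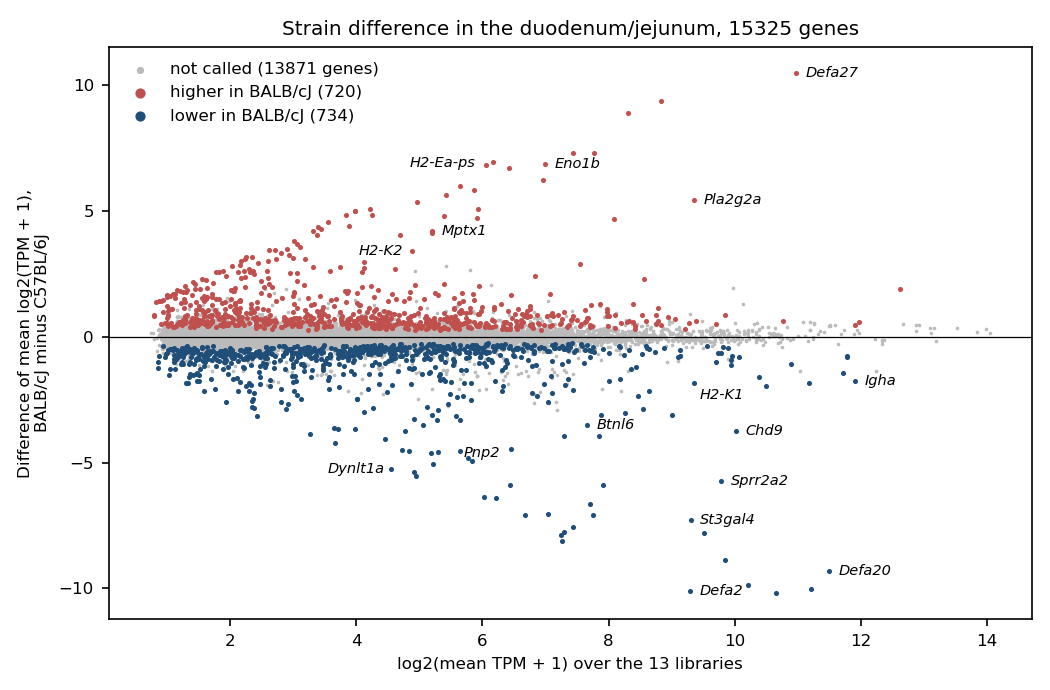
Difference of mean log2(TPM + 1) between strains, BALB/cJ minus C57BL/6J, against log2(mean TPM + 1) over the 13 libraries for the 15325 genes tested. Red points are the 720 genes called higher in BALB/cJ, blue points the 734 called lower and grey points the 13871 not called, and the outermost points on both sides include alpha-defensins.

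The largest differences were in genes with high levels in one strain and levels near 0 in the other. Each fold below is the ratio of mean TPM, and each difference is on the log2(TPM + 1) scale with its SE (6 against 7 mice). Among the genes higher in BALB/cJ, the alpha-defensin Defa27 led with levels of 3082 to 7305 TPM (median 3939) against 0 to 10.2 TPM (median 2.89), a 1284-fold difference (10.49 ± 0.56, adjusted p = 2.6e-09). Pla2g2a was 45.7-fold higher (5.46 ± 0.18, adjusted p = 8.2e-12). Eno1b, a gene closely similar to the glycolytic enolase Eno1, ran from 228 to 319 TPM in BALB/cJ and from 0 to 3.77 TPM in C57BL/6J. The summed level of Eno1 and Eno1b overlapped between strains (means 1286 and 995 TPM). Mptx1, a mucosal pentraxin, was 23.8-fold higher, and H2-K2, listed in the annotation as a class I pseudogene, 12.7-fold. Further genes on this side were Trim34b of the Trim30 cluster (21.3-fold), the histone gene Hist1h2aa (20.4-fold), the cytochrome P450 Cyp2c67 (12-fold), Tmem116 (10.4-fold), the cardiac actin gene Actc1 (9.02-fold), H2-Q3 (8.96-fold), Pyroxd2 (7.17-fold) and the glutathione transferase Gstm2 (5.39-fold). Of these, H2-Q3 is also listed in the annotation as a pseudogene. Sycp1, a gene of meiotic chromosome pairing, was at 5.45 to 11.8 TPM in BALB/cJ and listed at 0 in every C57BL/6J library.

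Among the genes lower in BALB/cJ, 7 of the 15 largest differences were alpha-defensins, described next. Outside that family, St3gal4, a sialyltransferase that caps glycans of glycoproteins and mucins, had levels of 4.38, 6.24 and 9.58 TPM (lowest, median, highest) in BALB/cJ and of 941, 1220 and 1416 TPM in C57BL/6J, 175-fold apart (-7.27 ± 0.15, adjusted p = 3.3e-14). Chd9, a chromatin remodeller, ran from 92.4 to 159 TPM against 1330 to 2399 TPM, 13.8-fold lower, and Cep85, a centrosomal protein, from 13.3 to 39.7 TPM against 265 to 568 TPM, 15.1-fold lower. Pnp2, a copy of the purine nucleoside phosphorylase gene, was 25.9-fold lower (5.12 to 6.88 against 119 to 191 TPM), while Pnp itself was at 177 and 154 TPM (adjusted p = 0.24). Dynlt1a, a dynein light chain gene in a group of near copies, was 290-fold lower (at most 0.859 against 33.5 to 49.0 TPM). Its neighbour Dynlt1b was 2.54-fold higher, and the sum over 5 such copies was higher in BALB/cJ (567 against 299 TPM, no overlap). For Eno1b, Dynlt1a and Pnp2, as for other near copies, the effect of sequence differences between BALB/cJ mice and the reference on the assignment of reads was not tested.

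In the build the submitters name, GRCm38, with the GENCODE M21 annotation, Defa27 lies at chr8:21315546-21316481, Pla2g2a at chr4:138831857-138835186, St3gal4 at chr9:35046576-35119268, Chd9 at chr8:90828352-91054516, Cep85 at chr4:134129858-134187112, Pnp2 at chr14:50955992-50964749 and Dynlt1a at chr17:6306340-6317500. The levels cover whole genes and do not distinguish exons.

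**Figure D3:**
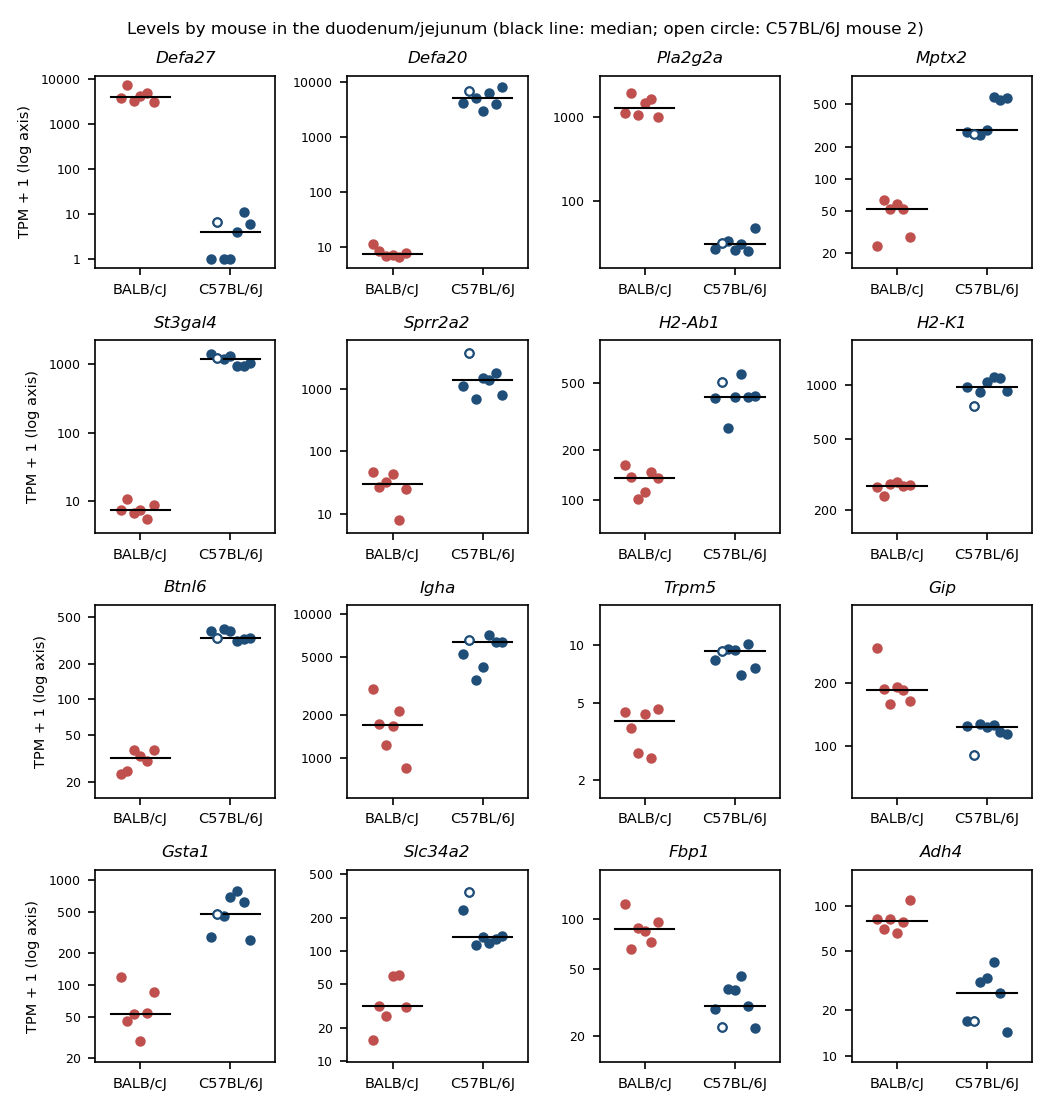
Level of 16 genes in each mouse as TPM + 1 on log axes, BALB/cJ in red and C57BL/6J in blue, with the black line at the strain's median and the open circle for the library labelled C57BL/6J mouse 2. All of the 16 genes are called, and in each panel the points of the strains do not overlap.

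Paneth cell products differed between strains by member rather than as a whole. Alpha-defensins are small membrane-disrupting peptides stored in Paneth granules and coded by near-identical genes on chromosome 8. Of the 21 tested, 2 were higher in BALB/cJ, 14 were lower and 5 were not called, with a median difference of -1.82 beside 0.01 over all genes. Besides Defa27, Defa31 was higher, with 5662, 8879 and 18167 TPM in BALB/cJ against 1350, 2742 and 4628 TPM in C57BL/6J (3.68-fold, 1.91 ± 0.32, adjusted p = 0.00084). On the other side, Defa20 had 5.62, 6.42 and 10.5 TPM against 2895, 5031 and 8121 TPM (758-fold, -9.32 ± 0.22, adjusted p = 1.6e-13). Defa21 (1379-fold), Defa22 (649-fold), Defa32 (353-fold) and Defa26 (219-fold) were lower to a similar degree. Defa2, at 735 to 1829 TPM in C57BL/6J, and Defa33, at 106 to 580 TPM, were listed at or near 0 in all BALB/cJ libraries. Defa24, the most abundant member, averaged 8836 and 9795 TPM (-0.17 ± 0.21, adjusted p = 0.74). The summed level of 23 alpha-defensins was 37606 ± 13473 TPM (SD, n = 6) in BALB/cJ and 47753 ± 11483 TPM (SD, n = 7) in C57BL/6J, and the strains overlapped. The members share long stretches of sequence, so a read may fit several of them, and how reads were split among members was not tested.

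Of 13 other genes listed as Paneth cell products, 3 were higher and 2 lower. Calls held in every single-library omission for 2 of the 3 higher genes. The higher gene whose call did not hold is also on the list of chloride, bicarbonate and sodium transport. Pla2g2a and Mptx1 were higher as given above. Mptx2, the second mucosal pentraxin, moved the other way, with 22.1, 51.3 and 62.4 TPM in BALB/cJ and 257, 284 and 584 TPM in C57BL/6J (8.81-fold lower, -3.10 ± 0.29, adjusted p = 2.1e-06). The sum of both pentraxins was lower in BALB/cJ (119 against 402 TPM, no overlap). Ang4, an antimicrobial ribonuclease, was 3.35-fold lower (73.4 to 171 against 263 to 527 TPM, adjusted p = 0.0001). Lyz1, the lysozyme of Paneth cells, was at 3974 ± 1090 TPM and 3643 ± 1027 TPM (SD, n = 6 and 7, adjusted p = 0.81).

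Among 23 other secreted antimicrobial proteins, 0 were higher and 4 lower in BALB/cJ (17% called, beside 9.49% of all genes). Sprr2a2, a small proline-rich protein made by epithelium in contact with bacteria, had 6.81, 28.5 and 46.3 TPM in BALB/cJ and 702, 1425 and 3858 TPM in C57BL/6J (54.9-fold lower, -5.71 ± 0.42, adjusted p = 1.5e-07). Its near copy Sprr2a1 was 43.1-fold lower, and the sum over 3 Sprr2a genes 33.9-fold lower. Reg3b and Reg3g, lectins that bind bacterial walls, varied widely within strains. Reg3g ran from 629 to 1641 TPM and from 787 to 8173 TPM (adjusted p = 0.071), and Reg3b from 689 to 5199 TPM and from 1284 to 14866 TPM (adjusted p = 0.17). Without C57BL/6J mouse 3 both were called lower in BALB/cJ, with differences of -1.61 (adjusted p = 0.015) for Reg3g and -1.72 (adjusted p = 0.043) for Reg3b.

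Goblet cell genes were called at 5% and mucin glycosylation and sialylation genes at 22%, beside 9.49% of all genes. Of 20 goblet cell genes 1 was higher, Rep15, a Rab15-binding protein (1.84-fold, 23.3 to 32.2 against 14.1 to 17.4 TPM, adjusted p = 1.2e-05). Muc2, the secreted gel-forming mucin, was at 912 ± 155 and 880 ± 360 TPM (adjusted p = 0.82), and Muc13, a membrane mucin of enterocytes, at 1195 and 1375 TPM (adjusted p = 0.37). Among 32 mucin glycosylation and sialylation genes, 2 were higher and 5 lower. St3gal6, another alpha-2,3-sialyltransferase, was 2.16-fold higher in BALB/cJ (65.0 to 121 against 35.3 to 68.2 TPM, adjusted p = 0.00035), opposite in direction to St3gal4. B3gnt3, which extends core glycans, was 2.52-fold lower (23.1 to 35.5 against 58.0 to 90.5 TPM, adjusted p = 1.2e-06), and Gcnt3, a core branching enzyme, was 1.57-fold higher.

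Antigen presentation differed in both classes. Class I molecules show peptides from inside the cell to CD8 T cells, and class II molecules show ingested peptides to CD4 T cells. Of 27 tested class I genes and loading factors 7 were higher and 5 lower in BALB/cJ (44% called, beside 9.49% of all genes). H2-K1, the classical K molecule, had 238, 274 and 288 TPM in BALB/cJ and 764, 982 and 1114 TPM in C57BL/6J (3.62-fold lower, -1.84 ± 0.10, adjusted p = 1.7e-09). H2-Q2 was 8.78-fold lower (72.8 to 114 against 525 to 1043 TPM). H2-Q6 (3.33-fold) and H2-Q10 (3.74-fold), also of the Q region, were higher. Summed over 8 H2-Q genes the level was lower in BALB/cJ (466 against 1109 TPM, no overlap), as was that over H2-K1 and H2-K2 (327 against 983 TPM, no overlap). Tap1, the peptide pump of class I loading, was 1.73-fold lower (19 to 37.3 against 39.1 to 52.4 TPM). B2m, the shared light chain, was at 1480 ± 270 and 1945 ± 315 TPM (-0.40 ± 0.13, adjusted p = 0.082), and without BALB/cJ mouse 5 its difference was -0.47 (adjusted p = 0.04). These genes are among the most variable between strains in sequence, and how far reads of BALB/cJ alleles were assigned to the C57BL/6J reference transcripts was not tested.

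Of 13 class II genes 1 was higher in BALB/cJ and 8 were lower, with a median difference of -0.64. Calls held in every single-library omission for 7 of the 8 lower genes. H2-Ab1, the A beta chain at chr17:34257689-34269419, had 100, 134 and 161 TPM in BALB/cJ and 270, 413 and 564 TPM in C57BL/6J (3.26-fold lower, -1.69 ± 0.15, adjusted p = 1.8e-06). H2-Aa, its alpha chain, had 141, 202 and 237 TPM against 232, 432 and 686 TPM (2.38-fold lower, adjusted p = 0.0023). H2-DMb1, a chain of the peptide exchanger, was 2.80-fold lower and H2-Eb1, the E beta chain, 1.75-fold lower. H2-Ob, a chain of the DM inhibitor, was at 3.08 to 4.08 against 4.63 to 11.1 TPM, and Cd74, the invariant chain, at 526 to 780 against 628 to 1410 TPM (1.61-fold lower, adjusted p = 0.016). The strains did not overlap for H2-Ab1, H2-DMb1 and H2-Ob, and did for H2-Aa, H2-Eb1 and Cd74. H2-DMb2 was the member that was higher (1.70-fold, adjusted p = 0.021), and without BALB/cJ mouse 6 its difference was 0.65 (adjusted p = 0.054). Ciita, the activator of class II transcription, averaged 8.26 and 10.4 TPM (-0.29 ± 0.15, adjusted p = 0.28). Without the library labelled C57BL/6J mouse 2 the counts were 1 higher and 7 lower. Without the 3 libraries with Y-linked transcripts they were 0 higher and 5 lower. As for class I, how far reads of BALB/cJ alleles were assigned to the C57BL/6J reference transcripts was not tested.

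Class II promoters share a set of short boxes read by the factors that recruit Ciita, of which the Y box (TGATTGG, or CCAATCA on the other strand) binds NF-Y. Since 8 class II genes were lower and 1 was higher, reference promoters of called members with a forward Y box are shown. Forward here means read in the direction of transcription. Each stretch runs from 130 to 31 bases before the transcript start, with the Y box in capitals. On either strand of the 250 bases before the start, the Y box was present in 7.23% of 32851 promoters. The forward box alone was present in 7 of the 8 class II H2 genes with an entry, whose other strand was not counted. The sequences are those of RefSeq for GRCm38.p6, the reference strain, and describe no difference between strains. Read in the direction of transcription, they come from chr17:34287854-34287953 (H2-Aa), chr17:34305737-34305836 (H2-Eb1), chr17:34153061-34153160 (H2-DMb1), chr17:34238775-34238874 (H2-Ob) and chr17:34145119-34145218 (H2-DMb2).
H2-Aa: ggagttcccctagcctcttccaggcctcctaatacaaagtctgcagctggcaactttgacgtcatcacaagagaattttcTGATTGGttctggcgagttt
H2-Eb1: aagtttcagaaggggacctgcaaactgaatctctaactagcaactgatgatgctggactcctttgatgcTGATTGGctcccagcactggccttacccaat
H2-DMb1: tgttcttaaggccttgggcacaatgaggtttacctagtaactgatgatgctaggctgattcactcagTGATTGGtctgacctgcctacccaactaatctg
H2-Ob: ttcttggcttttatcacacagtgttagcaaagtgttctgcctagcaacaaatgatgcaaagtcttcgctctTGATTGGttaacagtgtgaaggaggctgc
H2-DMb2: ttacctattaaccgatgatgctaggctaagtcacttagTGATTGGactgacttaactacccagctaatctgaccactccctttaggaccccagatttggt
The box began 50 bases before the start in H2-Aa, 61 in H2-Eb1, 63 in H2-DMb1, 59 in H2-Ob and 92 in H2-DMb2. It was thus present both in genes that were lower and in the 1 that was higher.

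Interferon-stimulated genes were split. Of 79 tested, 5 were higher in BALB/cJ and 17 lower (28% called, beside 9.49% of all genes), with a median difference of -0.06. Gvin1, a very large inducible GTPase, was 33.4-fold lower (at most 2.52 against 38.2 to 50.5 TPM, adjusted p = 2.6e-08), and Gbp6, a guanylate-binding protein that coats vacuoles of pathogens, 4.44-fold lower (1.96 to 3.92 against 7.77 to 15.6 TPM). In the Trim12, Trim30 and Trim34 cluster on chromosome 7, which codes for tripartite motif proteins, Trim12a was 8.19-fold lower (4.56 to 9.65 against 51.5 to 85.4 TPM) and Trim30d 7.70-fold lower (5.95 to 11.8 against 44.5 to 68.2 TPM). Their neighbours Trim12c (1.59-fold) and Trim34b were higher. Ifi44l was at 2.17 to 4.47 TPM in BALB/cJ and listed at 0 in all C57BL/6J libraries. Ddx60, a helicase of the antiviral response, was 2.06-fold higher, Samd9l, a translation restriction factor, 1.75-fold higher, and Oasl1, an oligoadenylate synthetase-like protein, 1.61-fold higher. Isg15, the ubiquitin-like protein often used as a readout of the response, was at 29.9 ± 11.6 and 21.8 ± 6.99 TPM (adjusted p = 0.33). The list therefore did not move in a single direction.

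Antibody genes were lower in BALB/cJ in part. Of 19 plasma cell genes 1 was higher and 4 were lower (26% called, beside 9.49% of all genes). Igha, the heavy chain of IgA, had 857, 1701 and 3036 TPM in BALB/cJ and 3485, 6342 and 7186 TPM in C57BL/6J (3.18-fold lower, -1.74 ± 0.26, adjusted p = 0.00027). Every BALB/cJ mouse lay below every C57BL/6J mouse. Ighg2b was 2.94-fold lower and Ighg3 was 2.96-fold higher (2.13 to 4.08 against 0.793 to 1.42 TPM, adjusted p = 7.3e-05). Jchain, which joins IgA into dimers, averaged 673 ± 301 and 1197 ± 370 TPM (-0.90 ± 0.29, adjusted p = 0.071). It was called when BALB/cJ mouse 1, BALB/cJ mouse 5 or C57BL/6J mouse 3 was left out, with differences from -1.06 to -1.02. The summed level of the plasma cell list ran from 1984 to 8087 TPM in BALB/cJ and from 6756 to 15848 TPM in C57BL/6J, which overlap. Without the libraries with Y-linked transcripts 1 plasma cell gene was higher and 1 lower, Ighg2b no longer being called, and without those under 1 TPM of Gkn1 1 was higher and 7 lower. Of 19 B cell genes none was called by limma (0 higher, 0 lower, 3 with an unadjusted p under 0.05).

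Butyrophilin-like proteins on enterocytes shape the gamma-delta T cells of the epithelium, and of 6 tested 1 was higher and 4 lower. Btnl6 had 22.5, 30.6 and 36.4 TPM in BALB/cJ and 308, 326 and 391 TPM in C57BL/6J (11.5-fold lower, -3.50 ± 0.12, adjusted p = 1.1e-11). Its partner Btnl1 was 1.45-fold lower (adjusted p = 0.016), the pseudogene Btnl5-ps 1.72-fold lower, and Btnl4 1.43-fold higher. Without the libraries with Y-linked transcripts 0 were higher and 2 lower, and Btnl1 and Btnl4 were no longer called. Of 24 T cell genes 0 were higher and 4 lower (17% called, beside 9.49% of all genes), among them Cd2, an adhesion receptor (1.83-fold, adjusted p = 0.014). Cd3e, part of the T cell receptor complex, was at 8.63 ± 2.70 and 10.9 ± 2.81 TPM (adjusted p = 0.40), and Cd8a at 8.61 and 9.99 TPM (adjusted p = 0.47).

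Mast cell and eosinophil genes moved in opposite directions. Mcpt1 and Mcpt2, chymases of mucosal mast cells, were higher in BALB/cJ by 3.32-fold (7.60 to 20.9 against 1.97 to 7.42 TPM, adjusted p = 0.00091) and 3.8-fold (3.52 to 8.31 against 0.636 to 2.85 TPM, adjusted p = 0.00036). Prg2, the major basic protein of eosinophils, was at most 0.306 TPM in BALB/cJ and 1.28 to 4.02 TPM in C57BL/6J (14.9-fold lower, adjusted p = 1.5e-05). Siglecf, a sialic acid receptor of eosinophils and tuft cells, was 2.03-fold lower. Those 4 were the only calls among the 8 tested members. Of 24 macrophage and dendritic cell genes 1 was called (4.2%, beside 9.49% of all genes). It was Siglech of plasmacytoid dendritic cells, which was 3.8-fold higher (2.35 to 6.69 against 0.717 to 1.95 TPM).

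Tuft cell genes were lower in BALB/cJ wherever they were called. Of 14 tested, 0 were higher, 7 lower and 7 not called, with a median difference of -0.68, and all 7 calls held when each library was left out. Trpm5, the cation channel of chemosensory cells, had 1.57, 3.04 and 3.67 TPM in BALB/cJ and 5.97, 8.35 and 9.14 TPM in C57BL/6J (2.81-fold lower, -1.25 ± 0.16, adjusted p = 6.6e-05). Sh2d6 was 2.41-fold lower and Rgs13, a regulator of G protein signalling, 1.96-fold lower, each without overlap between strains. Dclk1, the kinase by which tuft cells are often identified, was 2.37-fold lower (2.56 to 7.50 against 6.23 to 17.5 TPM, adjusted p = 0.0057). Without the 3 libraries with Y-linked transcripts Dclk1 was no longer called (difference -1.0, adjusted p = 0.068). The summed level of the 20 listed members, in which more widely expressed members weigh most, ran from 218 to 258 TPM and from 229 to 329 TPM, which overlap.

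Enteroendocrine, stem cell and cell cycle genes were called at 9.1%, 12% and 9.1%, near the 9.49% over all genes. Of 22 enteroendocrine genes 2 were higher. Gip, the incretin of K cells in the upper gut, had 157, 184 and 291 TPM in BALB/cJ and 90.5, 123 and 126 TPM in C57BL/6J (1.67-fold higher, 0.71 ± 0.13, adjusted p = 0.0023), and Scg5, a prohormone convertase chaperone, was 2.39-fold higher. Cck, the hormone of I cells, was at 45.4 ± 8.55 and 49.5 ± 15 TPM (adjusted p = 0.85). Of 17 stem cell and Wnt target genes 0 were higher and 2 lower, among them Prom1 (1.78-fold, 35 to 52.3 against 65.6 to 99.7 TPM, adjusted p = 0.0004). Olfm4, a stem cell marker, was at 336 and 321 TPM (adjusted p = 0.83) and Lgr5 at 5.83 and 6.78 TPM (adjusted p = 0.69). Of 33 cell cycle genes 3 were lower, among them Mcm6, a helicase subunit of replication (1.47-fold, adjusted p = 0.014), and without the libraries under 1 TPM of Gkn1 0 were called. None of 30 epithelial transcription factors was called by limma (0 higher, 0 lower, 5 with an unadjusted p under 0.05).

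Of the genes of fat absorption, sugar handling, amino acid transport and the brush border, 8.6%, 12%, 10% and 15% were called. The share over all genes was 9.49%. Most of these calls were higher in BALB/cJ. Of 35 genes of fat absorption 3 were higher and 0 lower, and the median difference was 0.22. Dgat2, which makes triglyceride for chylomicrons, was 2.10-fold higher in BALB/cJ (194 to 397 against 80.1 to 229 TPM, adjusted p = 0.0093), with the strains overlapping. Apoa1 was at 9414 ± 1422 and 8366 ± 1353 TPM (adjusted p = 0.57), and Fabp1 at 7686 ± 1319 and 5505 ± 1681 TPM (0.53 ± 0.20, adjusted p = 0.14). Of 25 genes of sugar digestion and transport 2 were higher and 1 lower. Fbp1, the gluconeogenic fructose bisphosphatase, was 2.78-fold higher (65.1, 85.4 and 121 against 21.4, 29.1 and 44.7 TPM, 1.47 ± 0.18, adjusted p = 5.1e-05). Sis, the sucrase-isomaltase, was at 2929 ± 663 and 2059 ± 420 TPM (0.51 ± 0.18, adjusted p = 0.090), and Slc5a1, the glucose transporter of the brush border, at 1149 and 1015 TPM (adjusted p = 0.48). Of 20 amino acid and peptide transporters 2 were higher, among them Slc6a8, the creatine transporter (1.44-fold, adjusted p = 0.013). Of 20 brush border peptidases and phosphatases 2 were higher and 1 lower: Mme, neprilysin, was 1.61-fold higher (532 to 805 against 241 to 494 TPM, adjusted p = 0.011) and Dpep1, a dipeptidase, 1.45-fold lower. The medians of the last 3 lists were 0.19, 0.29 and 0.16, and each had 2 genes called higher. Unadjusted p was under 0.05 for 13 of 35, 10 of 25 and 10 of 20 genes of fat, sugar and amino acid handling, against 3219 of all 15325. Without the libraries with Y-linked transcripts 0, 1, 0 and 0 genes of these 4 lists were higher, and Dgat2, Slc6a8, Mme and Dpep1 were no longer called. Without the libraries under 1 TPM of Gkn1 2, 4, 7 and 2 were higher, with medians of 0.38, 0.41, 0.43 and 0.24.

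Vitamin A handling gave calls in both directions. Dietary carotene is split by Bco1 and the resulting retinal and retinol are converted by dehydrogenases. Of 27 genes 4 were higher in BALB/cJ and 2 lower, and all 6 calls held in every single-library omission. The share called was 22%, beside 9.49% of all genes. Adh4, an alcohol dehydrogenase active on retinol, had 64.5, 78.3 and 107 TPM in BALB/cJ and 13.4, 25.1 and 40.7 TPM in C57BL/6J (3.22-fold higher, 1.73 ± 0.23, adjusted p = 0.00011). Rdh16, a retinol dehydrogenase, was 3.70-fold higher (17.8 to 26.3 against 4.65 to 7.55 TPM, adjusted p = 9.4e-08), and Adh1 2.11-fold. Bco1 was 5.66-fold lower (1.21 to 3.13 against 3.29 to 27 TPM, adjusted p = 0.0049) and Bco2, which cleaves carotenoids off centre, 2.02-fold lower. Rbp2, the retinol binding protein of enterocytes, was at 3668 and 3151 TPM (adjusted p = 0.50).

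Among 33 genes of chloride, bicarbonate and sodium transport, phosphate carriers included, 7 were higher and 2 lower, and 3 and 1 of these calls held in every single-library omission. Slc34a2, the sodium phosphate carrier of the brush border, had 14.5, 30.2 and 58.9 TPM in BALB/cJ and 112, 132 and 341 TPM in C57BL/6J (4.75-fold lower, -2.25 ± 0.33, adjusted p = 0.00027). Slc20a1, a phosphate carrier of another family, was 2.98-fold higher (36.1 to 65.2 against 12 to 20.9 TPM, adjusted p = 6.3e-06). Aqp11, an intracellular aquaporin, was 1.61-fold higher, and Car12, a carbonic anhydrase, 1.78-fold. Of 30 genes of iron, copper and vitamin handling 2 were higher, which at 6.7% lies below the 9.49% of all genes called. They included Mt1, a metal-binding metallothionein (2.10-fold, 201 to 368 against 77.2 to 169 TPM, adjusted p = 0.0027). Slc40a1, the iron exporter ferroportin of the duodenum, varied widely within each strain (15.6 to 157 and 12.1 to 130 TPM, adjusted p = 0.74).

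Lipid metabolism gave small shifts. Fatty acid oxidation and ketogenesis genes were called at 18% and cholesterol synthesis genes at 22%, beside 9.49% of all genes. Of 33 genes of fatty acid oxidation and ketogenesis 4 were higher and 2 lower, all held in every single-library omission, and without the libraries with Y-linked transcripts 1 was higher and 1 lower. Cyp4a10, which hydroxylates fatty acids at the omega end, was 3.86-fold higher (8.18 to 14.8 against 1.06 to 5.46 TPM, adjusted p = 0.00029), and Acaa2, a mitochondrial thiolase, 1.74-fold. Vnn1, a pantetheinase, was 1.78-fold lower. Of 27 cholesterol synthesis genes 2 were higher and 4 lower. Sc5d, a late enzyme of the pathway, was 1.5-fold lower (44.3 to 54.4 against 67.1 to 83.0 TPM, -0.57 ± 0.07, adjusted p = 7.5e-05). Insig1, a sterol-regulated retention protein, was 1.37-fold higher (adjusted p = 0.013), and with size factors by median of ratios it was no longer called (adjusted p = 0.052).

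Enzymes of xenobiotic metabolism were called in both directions. The share was 45% for cytochrome P450 genes and 30% for glutathione transferases and related enzymes, beside 9.49% of all genes. Of 29 cytochrome P450 genes 8 were higher and 5 lower. Cyp3a59 was 7.63-fold higher (4.67 to 8.86 against 0.367 to 1.10 TPM, adjusted p = 8.5e-08) and Cyp2j9 2.43-fold. Cyp2c29 was 10.5-fold lower (0.942 to 13.6 against 17.4 to 90.8 TPM, adjusted p = 0.00014). Cyp3a11, a drug-metabolising P450, was at 590 ± 288 and 490 ± 231 TPM (adjusted p = 0.73). Of 30 glutathione transferases and related enzymes 5 were higher and 4 lower. Gsta1 had 28.2, 52.5 and 119 TPM in BALB/cJ and 266, 471 and 786 TPM in C57BL/6J (8.06-fold lower, -3.04 ± 0.32, adjusted p = 8.7e-06), and Gstm3 was 5.03-fold lower. Gstm2, next to Gstm3 in the Gstm family, was higher, with 168 to 259 TPM against 25.6 to 55.9 TPM, and Gstp2 was 1.53-fold higher.

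Conjugating and reducing enzymes were mostly higher where called. Of 19 glucuronosyl- and sulfotransferases 6 were higher and 0 lower (median difference 0.44). Ugt2b5, a glucuronosyltransferase, was 2.90-fold higher (39.2 to 91.5 against 12.6 to 41.2 TPM, adjusted p = 0.0018), and Ugt2b36 2.61-fold (11.6 to 26.9 against 4.68 to 9.15 TPM). Of 18 carbonyl and aldo-keto reductases 4 were higher and 2 lower. Akr1c13 was 2.46-fold higher (188 to 417 against 80.0 to 177 TPM, adjusted p = 0.00056) and Akr1c14, which reduces steroids, 2.65-fold, while Adh6a, an alcohol dehydrogenase of the proximal gut, was 2.46-fold lower (138 to 225 against 278 to 607 TPM, adjusted p = 0.00022). Of 13 carboxylesterases 2 were higher, among them Ces1c (2.57-fold). The shares called in these lists were 32%, 33% and 15%, beside 9.49% of all genes. Outside these lists, Hspa8, the constitutive heat shock protein, was 2.14-fold lower (841 to 1333 against 1760 to 3120 TPM, adjusted p = 0.00019), the 1 call among 19 immediate early and stress genes (5.3%). Of 16 smooth muscle, 18 stromal and endothelial and 12 bile acid handling genes 0 were called by limma, with 6, 2 and 3 at an unadjusted p under 0.05. The smooth muscle genes had a median difference of -0.52, and 1 of 16 was above 0. Without the library labelled C57BL/6J mouse 2, 2 of them were called lower, and with size factors by median of ratios 3 were.

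**Figure D4:**
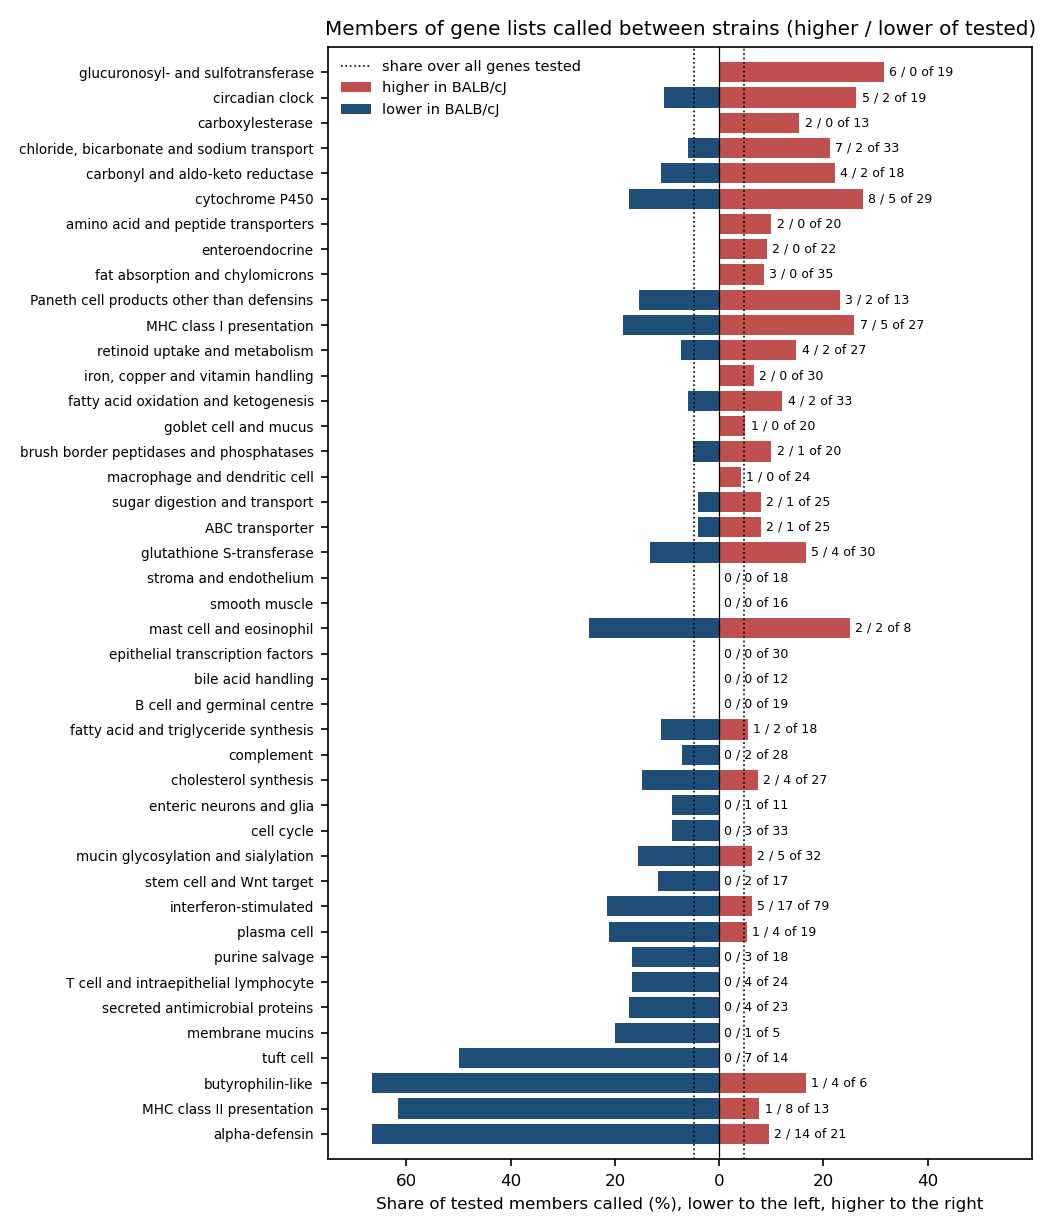
Share of tested members called, for the lists of cell types and functions drawn (lists of regional, other-tissue and label-check markers are not), as higher (red, right) or lower (blue, left) in BALB/cJ, in percent, with the counts of higher and lower over tested beside the bars and dotted lines at the shares over all genes, 4.70% and 4.79%. Alpha-defensin, butyrophilin-like, class II and tuft cell genes reach far to the left, and glucuronosyl- and sulfotransferases far to the right.

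Circadian clock genes differed, and the labels give no time of collection. In the clock, Arntl drives the Per genes and output factors such as Dbp, while Nfil3 opposes Dbp at D-box sites, so the 2 sides peak at different hours. Of 19 tested 5 were higher in BALB/cJ and 2 lower. Dbp had 46.2, 61.4 and 97.5 TPM in BALB/cJ and 4.63, 14.3 and 42.3 TPM in C57BL/6J (3.50-fold higher, 2.10 ± 0.43, adjusted p = 0.0049). The C57BL/6J values were not uniform: mice 3 and 7 had 42.3 and 39.4 TPM of Dbp and the other 5 had 4.63 to 16.7 TPM. Per3 had 8.81, 12.3 and 19.2 TPM against 2.29, 4.03 and 9.65 TPM (2.52-fold higher, adjusted p = 0.0051). Here too mice 3 and 7 had the 2 highest C57BL/6J values, and unlike those of Dbp they overlapped BALB/cJ. Per2 was 2.10-fold higher and Ciart, a repressor of the clock, 2.57-fold. Nfil3 had 1.31, 2.74 and 3.53 TPM against 3.52, 7.17 and 9.41 TPM (2.60-fold lower, adjusted p = 0.0020), and Arntl 7.43, 9.99 and 13.7 TPM against 13.6, 18.9 and 22.2 TPM (1.73-fold lower, adjusted p = 0.0054). Nr1d1, a repressor of Arntl, was at 62.4 ± 17.9 and 49.6 ± 18 TPM (adjusted p = 0.45). With size factors by median of ratios 8 were higher and 2 lower. Strain and hour of collection cannot be told apart for these genes.

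**Figure D5:**
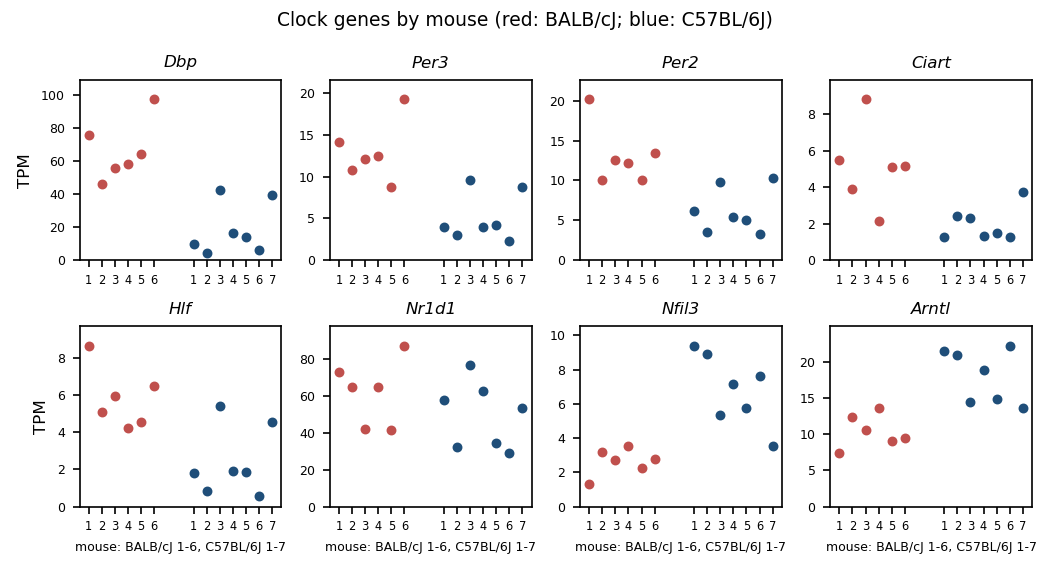
TPM of 8 clock genes in each mouse on linear axes from 0, BALB/cJ mice 1 to 6 in red and C57BL/6J mice 1 to 7 in blue. For Dbp, Per3, Per2 and Hlf the C57BL/6J mice 3 and 7 lie above the other 5 of their strain, and for Nfil3 and Arntl these 2 mice are the 2 lowest of theirs.

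Clock control acts through short promoter sites, the E-box (CACGTG, its own reverse complement) read by Arntl and its partner, and the D-box (TTANGTAA, on both strands) read by Dbp and Nfil3. The E-box occurred in 6.02% of 32851 RefSeq promoters (250 bases before the start, GRCm38.p6) and in 5 of 16 clock genes with an entry, and the D-box in 2.06% and in 1 of 16. The promoters of the 2 called genes that hold such a site, Ciart with the E-box and Per3 with the D-box, are shown with the sites in capitals. They come from chr3:95882259-95882358 (Ciart, 130 to 31 bases before the start) and chr4:151044786-151044885 (Per3, 220 to 121 bases before it), both read on the minus strand.
Ciart: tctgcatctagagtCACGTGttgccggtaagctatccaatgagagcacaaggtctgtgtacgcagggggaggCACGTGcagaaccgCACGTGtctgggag
Per3: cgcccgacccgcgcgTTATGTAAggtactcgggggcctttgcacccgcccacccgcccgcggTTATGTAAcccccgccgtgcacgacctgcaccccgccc
The E-box began 116, 58 and 44 bases before the start of Ciart, and the D-box 205 and 158 bases before that of Per3. Both genes were higher in BALB/cJ, but the other clock genes with an E-box were not called. The lack of a match in a window of this length says nothing about the remaining clock genes.

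Calls were unevenly spread over the genome. Of the tested genes placed on GRCm38, 15.7% were called on chromosome 17, 15% on chromosome 12 and 14.5% on chromosome 8, against 6.00% to 11% on the other autosomes. The alpha-defensin stretch, chr8:21025545-21735471, held 28 tested genes of which 23 were called, 3 higher in BALB/cJ and 20 lower. The class II stretch, chr17:34092340-34341412, held 13 with 8 called (1 higher, 7 lower), and the adjacent butyrophilin-like stretch, chr17:34354822-34547651, held 8 with 7 called (1 higher, 6 lower). In the Trim cluster, chr7:104244457-104507849, all 8 tested genes were called, 2 higher and 6 lower. Within each of these stretches neighbours thus moved both ways.

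The strain difference in the duodenum/jejunum was then set against that in the other segments of the same animals by testing the difference of differences. Against the ileum 55 of 15820 genes were called (limma, adjusted p under 0.05, 0.348%), in 14 (0.0885%) the BALB/cJ level relative to C57BL/6J being higher in the duodenum/jejunum and in 41 (0.259%) lower. With the animal as a replicate block 698 were called (4.41%), 49 and 649. The median of all genes was -0.17, and with size factors by median of ratios within each segment it was 0.01, with 33 calls, 21 higher and 12 lower, so the split by direction rests on the scaling. Both libraries of C57BL/6J mouse 2 enter this test, and without them 112 genes were called. Among these were Defa33, H2-Q2, Cyp2c29 and Defa2, with adjusted p (limma) of 1.9e-05, 0.00038, 0.0018 and 0.0055. With those libraries kept the adjusted p of the same genes was 0.33, 0.11, 0.17 and 0.64.

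Among the genes described in this report, Serpina10, H2-Ea-ps, Mptx1 and Rdh16 differed from the ileum in each of these 4 fits. They are not the only such genes, as others of small adjusted p that are not described here also passed in all 4. Serpina10, a serpin inhibitor of clotting proteases, averaged 0.329 and 0.219 TPM here and 9.12 and 0.604 TPM in the ileum of BALB/cJ and C57BL/6J (difference of differences -2.49 ± 0.24, adjusted p = 2.3e-06). For H2-Ea-ps the strain difference was 6.83 here and 8.44 in the ileum (-1.61 ± 0.20, adjusted p = 4e-05). It averaged 141 and 0.216 TPM here and 395 and 0.135 TPM in the ileum of BALB/cJ and C57BL/6J. With C57BL/6J near 0 in both segments, this contrast follows the BALB/cJ level. Mptx1 was higher in BALB/cJ in both segments, by 4.2 here and by 5.89 in the ileum (-1.69 ± 0.32, adjusted p = 0.013). For Rdh16 the strain difference was larger here, 1.73 against 0.76 (0.97 ± 0.22, adjusted p = 0.041). H2-Eb1 had a strain difference of -0.80 here and of 0.26 in the ileum (a difference of -1.06 ± 0.18, adjusted p = 0.005), but with size factors by median of ratios that adjusted p was 0.11. For H2-Ab1, -1.69 here and -0.65 in the ileum (-1.04 ± 0.19), the adjusted p was 0.012 and with those factors 0.17. St3gal4, Btnl6, Chd9, Pla2g2a and Sprr2a2 had no called difference from the ileum, with adjusted p of 0.61, 0.97, 0.91, 0.98 and 0.78.

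Against the colon 1235 of 16358 genes were called (7.55%), in 392 the BALB/cJ level relative to C57BL/6J being higher here (2.40%) and in 843 lower (5.15%). With the animal as a replicate block the share was 7.94%. Mptx1 and Mptx2 had strain differences of opposite sign in the 2 segments. Mptx1 was higher in BALB/cJ here (4.2) and lower in the colon (-2.28, a difference of 6.48 ± 0.40, adjusted p = 6.4e-12), and Mptx2 was lower here (-3.10) and higher in the colon (4.59, a difference of -7.70 ± 0.35, adjusted p = 9.3e-15). St3gal4 was lower in BALB/cJ in both, by far more here (-7.27 against -3.24, adjusted p = 2.6e-14). Nxpe5 averaged 0.847 and 0.937 TPM here and 136 and 1.52 TPM in the colon of BALB/cJ and C57BL/6J (-5.84 ± 0.14, adjusted p = 4.2e-21), and Lpo, lactoperoxidase, 0.425 and 0.173 TPM here and 336 and 13.7 TPM in the colon (-4.30 ± 0.18, adjusted p = 2.3e-15). Nxpe4 was lower in BALB/cJ in both, less so here (-0.87 against -4.28, adjusted p = 9.3e-15). Defa20 was far lower in BALB/cJ here and near 0 in the colon of both strains (-8.63 ± 0.34). Igha was lower in BALB/cJ here and at 1364 and 1250 TPM in the colon (-1.81 ± 0.38, adjusted p = 0.0023). Btnl6 and Chd9 had strain differences of similar size in both segments, with adjusted p of 0.18 and 0.79 for the difference.

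By list, the strain difference relative to the colon was lower here for 56 of 79 interferon-stimulated genes and higher for 0 (median -0.92, beside -0.01 over all genes tested). The same held for 10 of 13 class II genes, 17 of 27 cholesterol synthesis genes and 11 of 19 B cell genes, with 0 called in the other direction in each. In the other direction were 6 of 20 glucuronosyl- and sulfotransferases with 0 lower, and 8 of 21 carbonyl and aldo-keto reductases with 3 lower. Of 19 clock genes 0 were called against either segment, where 0.348% (ileum) and 7.55% (colon) of all genes were, so that few or no calls would be usual for a list of this size.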

How the data were processed

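Total RNA was depleted of ribosomal RNA and made into TruSeq libraries, per the labels' protocols, and transcripts were quantified with kallisto 0.44.0 for GRCm38, per the submitters' processing notes. The transcript annotation is not stated there. The values deposited by the authors are log2(TPM + 1) per gene symbol, 1 table per segment. TPM was recovered as 2 to the power of the deposited log2 value, minus 1. Read counts cannot be had from TPM, so sequencing depth is unknown here and no interval for counting error is given. Summed TPM was 990532 to 996230 per library, 14557 to 15488 entries reached 1 TPM, and 0 pairs of libraries held identical values. Of the tested entries 356 are listed by transcript ID and 19 carry names turned into dates.

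The entries that passed the filter (1 TPM or more in 6 libraries or more) were tested on log2(TPM + 1) with limma 3.58.1 (R 4.3.3, variance trend, strain as the only term), with p-values adjusted over all tested genes by the Benjamini-Hochberg method and called under 0.05. A pseudocount of 1 understates the change of genes with low levels. Segments were compared by the difference of the strain differences. The labels give the same animal number in each segment, so those libraries come from the same mice, and within 12 of the 13 mice the deviations in duodenum/jejunum and ileum correlated at 0.155 to 0.424 (C57BL/6J mouse 2, -0.174). Equal numbers in the 2 strains are different animals.

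Members and lists were chosen with earlier results of these data known. Named genes were the label check genes, the 15 largest called changes each way (mean of 5 TPM or more in the higher strain, no overlap, called also without C57BL/6J mouse 2, predicted genes and antigen receptors left out), up to 4 called members of smallest adjusted p and the 2 most abundant of each list, and 8 genes of smallest adjusted p against each other segment. Of those, the text gives mainly genes whose call held in every single-library omission. Car1, Cck, Cd3e, Cd8a, Ciart, Ciita, Dclk1, Ddx3y, Ddx60, Dynlt1b, Eno1, Gbp6, Gkn1, H2-DMb2, H2-Ob, Hlf, Hoxb13, Isg15, Jchain, Lgr5, Muc2, Oasl1, Per2, Pnp, Reg3g, Samd9l, Slc10a2, Slc40a1, Slc5a1, Tap1, Tmprss15 and Trim12c were named after their values were seen. Gene positions come from GENCODE M21, which placed 14775 of the 15325 symbols once. Alternatives were another pseudocount, other low-value filters, size factors by median of ratios (RLE), limma without the trend or with a robust prior, a replicate block, all 39 libraries in 1 fit, and omission of single libraries or of the libraries that stood apart.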

Additional observations from a re-analysis of the deposited data

Results flagged for a closer look

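For each gene named above, the highest or lowest mouse of a strain was picked out where its gap to the nearest other mouse took up a larger part of the strain's whole range than Dixon's critical value for that number of mice. This singled out 38 of 312 groups of values. For normally distributed values the critical values would give about 1 in 20. They were applied to TPM without a transformation, and whether TPM meets that condition was not tested. The genes were in part named because a library stood apart in them. The library labelled C57BL/6J mouse 2 stood apart for Fabp6 at 6111 TPM, Gip at 90.5 TPM, H2-DMb2 at 17.1 TPM, H2-Ob at 11.1 TPM, Reg3g at 8173 TPM, Serpina10 at 0.825 TPM, Sis at 1197 TPM, Slc10a2 at 86.7 TPM and Sprr2a2 at 3858 TPM, so ileal genes, 1 hormone, 1 disaccharidase and antimicrobial and class II genes are among its values. C57BL/6J mouse 5 stood apart for Actc1 at 2.78 TPM. BALB/cJ mouse 6 stood apart for Adh4 at 107 TPM and Siglech at 2.35 TPM. BALB/cJ mouse 2 stood apart for Apoa1 at 6665 TPM, Ciita at 11.4 TPM, Dgat2 at 194 TPM, Gbp6 at 3.92 TPM, Nnt at 22.4 TPM and Siglecf at 3.47 TPM. BALB/cJ mouse 1 stood apart for Car1 at 15.1 TPM, Cyp2c29 at 13.6 TPM, Ddx3y at 25.6 TPM, Gip at 291 TPM, Hoxb13 at 0.715 TPM, Insig1 at 65.5 TPM and Per2 at 20.2 TPM. C57BL/6J mouse 6 stood apart for Ddx60 at 56.6 TPM and Dynlt1b at 171 TPM. BALB/cJ mouse 4 stood apart for Defa2 at 0.00378 TPM and Defa33 at 0.00151 TPM. BALB/cJ mouse 3 stood apart for Dynlt1a at 0.859 TPM and Trim30d at 11.8 TPM. BALB/cJ mouse 5 stood apart for Fabp6 at 96 TPM, Ighg2b at 18.8 TPM and Slc10a2 at 9.3 TPM. C57BL/6J mouse 4 stood apart for Hist1h2aa at 1.43 TPM and Nxpe4 at 1.21 TPM. C57BL/6J mouse 7 stood apart for Pla2g2a at 46.5 TPM. C57BL/6J mouse 3 stood apart for Tap1 at 39.1 TPM.

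The strain difference itself differed between segments, by limma's test of the difference of differences (duodenum/jejunum minus the other segment, log2 scale). Against the ileum, with both libraries of C57BL/6J mouse 2 kept, this was so for 8 of 154 named genes tested. These were Serpina10 (-2.49), Mptx1 (-1.69), Rdh16 (0.97), H2-Eb1 (-1.06), H2-Ab1 (-1.04), H2-Ea-ps (-1.61), Cyp4a10 (1.80) and Dpep1 (-1.14). Without those libraries further named genes were called, Defa33, H2-Q2, Cyp2c29 and Defa2 among them. Against the colon it was so for 71 of 155, and those whose values are given above are Mptx1 (6.48), Mptx2 (-7.70), St3gal4 (-4.03), Nxpe5 (-5.84), Lpo (-4.30), Nxpe4 (3.41), Defa20 (-8.63) and Igha (-1.81). For H2-Eb1, H2-Ab1, Cyp4a10 and Dpep1 the test against the ileum did not pass with median-of-ratios size factors.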

How the results depend on the processing

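No call of the strain difference changed direction under any of the alternatives run. Leaving out 1 library at a time gave 1188 to 1417 calls, 593 to 748 higher in BALB/cJ and 595 to 722 lower. A pseudocount of 0.1 gave 695 higher and 720 lower, no filter on low values 817 and 750, a filter of 5 TPM 509 and 561, and median-of-ratios size factors 877 and 868. With all 39 libraries in 1 fit, which shares the spread over segments, 1087 were higher and 1055 lower. Without the 3 libraries with Y-linked transcripts there were 927 calls with 440 lower, and without the 4 libraries under 1 TPM of Gkn1 454 were lower and 59.6% of calls were higher, against 49.5%. Both of these omissions were chosen after seeing the data, and both leave fewer mice. Of the named calls, Adh1, H2-Ob, Mme and Slc6a8 were lost with all 39 libraries, Insig1 with median-of-ratios size factors, Cd74, Dpep1 and Insig1 with those factors and without C57BL/6J mouse 2, Hlf with no filter, and Cd2 and Mcm6 with the mouse number as a block. As a replicate block, the mouse number gave 1139 calls (608 higher, 531 lower), but the numbers belong to different animals and their deviations correlated at -0.347 to 0.225. Against the ileum the 55 calls (14 higher here, 41 lower) became 698 with the animal as a replicate block (49 and 649), 112 without both libraries of C57BL/6J mouse 2 (23 and 89), and 33 with median-of-ratios size factors within each segment (21 and 12), and the cause was not tested. Against the colon the count was 1234 to 1387 under the same alternatives. Depth is unknown for these values, so a gene near 0 TPM may be undetected.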
